A study of Mus musculus with 9 samples.

Results

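The signal transducer and activator of transcription (STAT) proteins are transcription factors that carry cytokine signals from the cell membrane to the nucleus. The 6 STAT genes considered here, Stat2, Stat3, Stat4, Stat5a, Stat5b and Stat6, were found by gene name among 37325 genes on the arrays and were read by 11 probes. Every one of the 11 probes was well above background on all 9 arrays, so all 6 genes entered the tests on 29410 genes.

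When a cytokine binds its receptor, Janus kinases (JAKs) attached to the receptor phosphorylate STAT proteins, which pair, enter the nucleus and switch on target genes. SOCS proteins and CISH are among the genes switched on, and they shut the signal down again. The STAT5 proteins carry growth signals in blood cells, while type I interferon acts through STAT2 bound to IRF9.

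The samples were mature megakaryocytes (mMKs) from the bone marrow of male mice. Ctrl mice were not irradiated (sham irradiation in the study's methods), and the other groups were taken 1 and 3 days post IR (dpi) after a 5 Gy dose of γ-rays to the whole body. Each group held 3 samples, each on its own 1-colour Agilent array, from separate experiments with different donors per the series design, and the p-values rest on these 3 against 3. The labels give neither strain nor age nor whether animals were pooled, and the methods obtained mMKs by positive selection for CD41 and then CD42d. The methods describe an Affymetrix chip, whereas the deposited files are Agilent scanner output, so hybridisation details from the methods were not used here.

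All values are log2 signal minus the array's 75th percentile, so 0 is the 75th percentile of an array and negative values lie below it. A gene is given by its brightest probe. It was called where limma's adjusted p was under 0.05 and the change was at least 2-fold, and a weaker rule used the adjusted p alone. The share of spots well above background was 69.1%, 79.5% and 80.8% on the Ctrl arrays, 72.3%, 74.8% and 75.6% at 1 dpi, and 81.8%, 81.6% and 81.8% at 3 dpi. Ctrl replicate 1, the lowest, was alone on its slide. Before scaling, the 75th percentile of log2 intensity was 10.03, 10.62 and 10.66 in Ctrl and 9.33, 9.45 and 9.43 at 1 dpi. At 3 dpi it was 10.37, 10.55 and 10.53. The 1 dpi arrays were thus dimmer, and every change given here is relative to the rest of its array.

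Scaling mattered because the log2 fold changes of all genes were not centred on 0. Their median was 0.25 at 1 dpi against Ctrl, 0.11 at 3 dpi against Ctrl and -0.11 at 3 dpi against 1 dpi. Without Ctrl replicate 1 the first 2 of these medians were 0.15 and 0.00, so values relative to all genes depend on that array. With each array scaled to its median the 3 medians were -0.07, -0.01 and 0.08, so the STAT gene changes are also given relative to all genes. Of the genes called at 1 dpi, 81.1% were higher, against 48.8% with scaling to the median and 56.2% with quantile normalization, and 87.9% with normexp background correction. Between the times 45.2% were higher, against 67.2%, 62.9% and 24.8%, and 26.7% with no filter on dim probes.

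The megakaryocyte label was checked against 14 marker genes, all well above background on all 9 arrays, with platelet factor 4 (Pf4) having the brightest probe. The log2 of their summed signal was 7.52, 7.36 and 7.34 in Ctrl, 7.38, 7.26 and 7.24 at 1 dpi and 7.44, 7.41 and 7.39 at 3 dpi. Their mean log2 signal, in which each gene counts alike, was 1.97, 1.91 and 1.85 at 1 dpi, below all Ctrl arrays, and their median log2 fold change there was -0.23, or -0.48 relative to all genes. By limma 0 of the 14 were called at either time against Ctrl. On the adjusted p alone 2 were higher and 6 lower at 1 dpi, beside 34.8% and 21.1% of all genes. At an unadjusted p under 0.05 the counts were 2 and 7 at 1 dpi, and 3 and 2 at 3 dpi.

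Markers of other cell types were measured in the same samples and moved with the groups. Of 8 B cell markers, 7 were called lower at 1 dpi and 7 at 3 dpi. The log2 of their summed signal was 4.53, 4.40 and 4.44 in Ctrl, 2.53, 2.46 and 2.50 at 1 dpi and 2.40, 2.37 and 2.36 at 3 dpi, with Cd79b brightest. Of 9 macrophage markers, 4 were called higher at 1 dpi and 8 at 3 dpi. Their summed signal was 5.65, 5.45 and 5.39 in Ctrl, 6.37, 6.27 and 6.32 at 1 dpi and 7.04, 6.98 and 6.94 at 3 dpi, with Csf1r brightest on 8 of 9 arrays. No overlap between Ctrl and either time was left in these 2 sums.

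Stromal markers (8 genes) gave 5 called higher at 1 dpi and 4 at 3 dpi, with summed signals of 3.34, 3.28 and 3.35 in Ctrl, 5.65, 5.44 and 5.56 at 1 dpi and 6.49, 6.36 and 6.46 at 3 dpi. Cxcl12 was the brightest of them. For 6 endothelial markers, led by Stab2, 2 were called higher at 1 dpi and 5 at 3 dpi, and the mean log2 signals were -1.67, -1.88 and -1.82, then -1.02, -1.20 and -1.11, then -0.05, -0.19 and -0.17. For 10 T and NK cell markers, led by Nkg7, 2 and 4 were called higher, and the sums were 4.96, 5.04 and 4.97, then 5.52, 5.42 and 5.43, then 5.34, 5.20 and 5.16.

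All 8 neutrophil markers were well above background in every sample, Mpo being brightest, with 2 called higher at 1 dpi and 0 at 3 dpi. Their sums were 9.96, 10.06 and 10.04 in Ctrl, 10.81, 10.71 and 10.68 at 1 dpi and 10.13, 9.96 and 10.05 at 3 dpi. Of 7 erythroid markers, 4 were called lower and 2 higher at 1 dpi, and 6 lower at 3 dpi. The sums, led by Hba-a1, were 6.69, 6.39 and 6.45, then 7.94, 7.64 and 7.62, then 5.05, 5.04 and 4.92. Of 5 dendritic markers, led by Siglech, 1 was called higher and 1 lower at 1 dpi, and 1 lower at 3 dpi, with sums of 4.05, 4.98 and 5.01, then 5.68, 5.58 and 5.53, then 4.80, 4.63 and 4.59. The part of these cell types in the STAT results was not tested, and in bulk samples fewer cells of a type and less RNA per cell cannot be told apart.

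**Figure D1:**
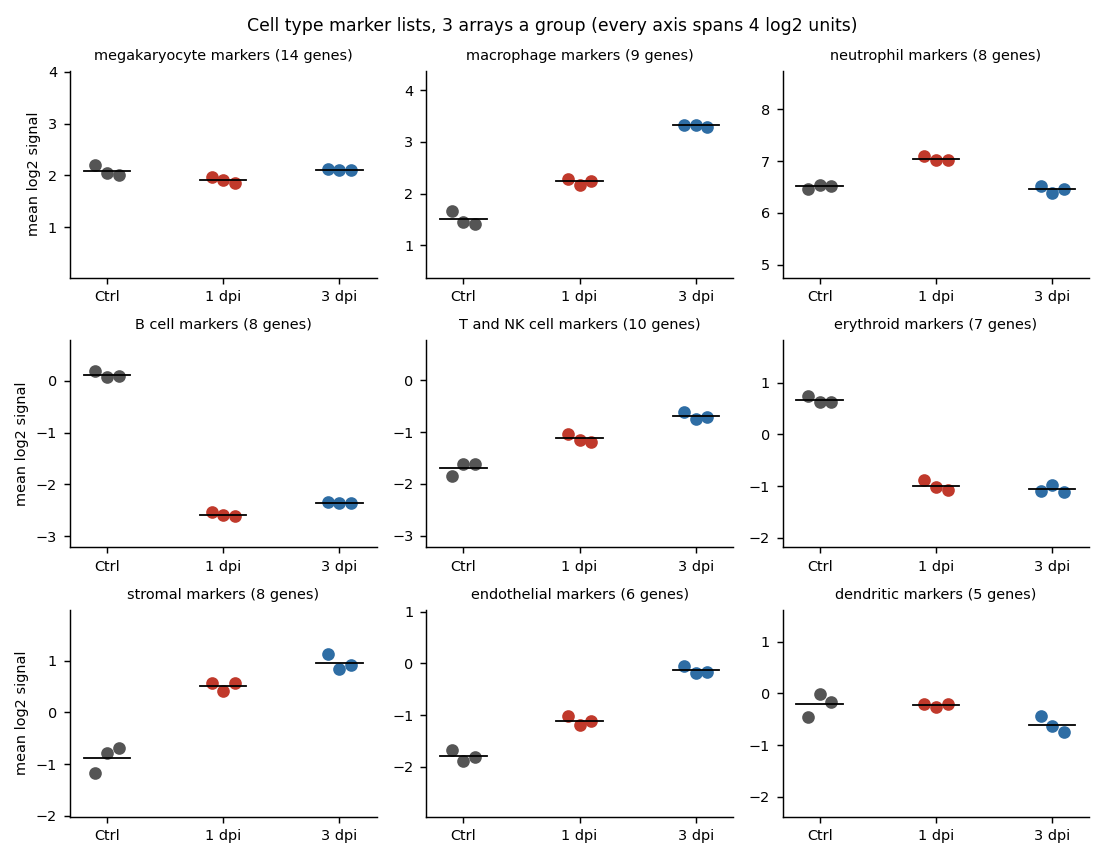
Mean log2 signal of 9 cell type marker lists on each array, relative to the array's 75th percentile, with points for the 3 arrays of a group and lines for their means. The 14 megakaryocyte markers averaged 1.85 to 1.97 at 1 dpi, below every Ctrl array, while the B cell mean went from 0.07 to 0.19 in Ctrl down to -2.62 to -2.54 at 1 dpi.

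Stat2, which joins IRF9 in the complex that carries type I interferon signals, was the 1 STAT gene of the 6 that rose at 1 dpi. Its signal was 1.68, 1.66 and 1.63 in Ctrl, 2.72, 2.70 and 2.66 at 1 dpi and 2.20, 2.04 and 1.95 at 3 dpi. The 3 groups did not overlap, with 1 dpi highest and 3 dpi between. Before scaling, the mean intensity of this probe was 4.45e+03 in Ctrl, 4.38e+03 at 1 dpi and 6.00e+03 at 3 dpi. Its rise at 1 dpi is therefore relative to the dimmer arrays of that group. At 1 dpi the log2 fold change was 1.04 (SE 0.07, adjusted p = 2.9e-05 by limma), a fold of 2.05 with a 95% interval of 1.82 to 2.31, and 0.79 relative to all genes. At 3 dpi it was 0.41 (SE 0.07, adjusted p = 0.004), or 0.30 relative to all genes. Between the times Stat2 fell by 0.63 (SE 0.07, adjusted p = 4.7e-04). The 2-fold mark at 1 dpi was narrowly passed: the log2 fold change was 0.72 with scaling to the array median (adjusted p = 0.0021) and 0.98 with normexp background correction, both under 2-fold. At 3 dpi the value was 0.28 with scaling to the median, at an adjusted p of 0.15.

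A second Stat2 probe gave the same direction. Its 60 bases start 1362 bases into the transcript and span an intron on chromosome 10 (mm9, chr10:127719861-127720302, plus strand), and are shown because this probe lies far from the 3′ end that the brightest probe reads.
Stat2 probe A_66_P102138: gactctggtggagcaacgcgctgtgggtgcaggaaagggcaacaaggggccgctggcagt
This probe read -4.03, -4.05 and -3.83 in Ctrl, -2.73, -2.96 and -2.82 at 1 dpi and -3.76, -3.50 and -3.83 at 3 dpi. The 1 dpi arrays were all above the others, and the lowest 3 dpi array lay next to the highest Ctrl array. The 1 dpi rise was 1.13 (SE 0.11, adjusted p = 1.3e-04), and its 3 dpi value was 0.27 (95% interval 0.01 to 0.53, adjusted p = 0.1). Before scaling, its mean intensity was 91.1 in Ctrl and 94.7 at 1 dpi, so this rise too is relative to dimmer arrays.

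The promoter of Stat2 is printed because the gene rose with interferon target genes and an interferon-response-like core lies in it. The sequence is the 250 bases before the start site from RefSeq (GRCm38.p6, chr10:128270248-128270497, plus strand), with the motif in capitals.
Stat2 promoter: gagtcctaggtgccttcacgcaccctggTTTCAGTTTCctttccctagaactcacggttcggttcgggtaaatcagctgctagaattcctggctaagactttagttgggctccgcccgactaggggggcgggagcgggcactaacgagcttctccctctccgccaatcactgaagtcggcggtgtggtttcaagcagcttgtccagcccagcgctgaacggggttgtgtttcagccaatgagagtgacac
The capitals match the ISRE-like core, GAAA, any 2 bases and GAAA again, on the opposite strand, from 222 to 213 bases before the start. This core was searched on both strands and occurs in 3.44% of 32851 promoters of 300 bases, and in 2 of the 9 promoters listed for the 6 STAT genes. The other is the second promoter of Stat4 (GRCm38.p6, chr1:52007990-52008239, plus strand), printed for comparison because Stat4 did not rise at 1 or 3 dpi.
Stat4 second promoter: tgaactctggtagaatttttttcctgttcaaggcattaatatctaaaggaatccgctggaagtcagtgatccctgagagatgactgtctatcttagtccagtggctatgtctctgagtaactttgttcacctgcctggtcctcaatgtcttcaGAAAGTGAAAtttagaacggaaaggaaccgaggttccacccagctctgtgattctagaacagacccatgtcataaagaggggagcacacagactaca
Its core lies from 97 to 88 bases before the start on the same strand. The STAT-binding GAS core, TTCNNNGAA, which reads alike on both strands, was in 8.3% of all promoters and in 0 of the 9. These matches describe letters in a window and say nothing of binding.

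The STAT5 genes, whose products carry growth signals in blood cells, were lower after irradiation on their brightest probes. Stat5a read 2.53, 2.45 and 2.42 in Ctrl, 1.95, 1.96 and 1.91 at 1 dpi and 2.02, 1.87 and 1.82 at 3 dpi. All Ctrl arrays were above all irradiated ones, and the 2 times overlapped. Stat5a fell by 0.53 at 1 dpi (SE 0.07, adjusted p = 5.7e-04) and by 0.57 at 3 dpi (SE 0.07, adjusted p = 6.0e-04), which was -0.78 and -0.68 relative to all genes. The 3 dpi against 1 dpi value was -0.04 (95% interval -0.20 to 0.13, adjusted p = 0.69).

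Stat5b, the closest relative of Stat5a, read 3.13, 3.16 and 3.11 in Ctrl, 2.58, 2.70 and 2.66 at 1 dpi and 2.69, 2.67 and 2.60 at 3 dpi. Again Ctrl was above both times, which overlapped. It fell by 0.49 at 1 dpi (SE 0.06, adjusted p = 3.9e-04) and by 0.48 at 3 dpi (SE 0.06, adjusted p = 6.1e-04), or -0.73 and -0.59 relative to all genes. The folds of the 2 STAT5 genes lay between 0.675 and 0.716, so neither reached 2-fold. Its second probe, annotated to a cDNA clone (mm9, chr11:100682720-100682779, minus strand), read -3.16, -3.11 and -3.10 in Ctrl, -4.28, -3.92 and -3.93 at 1 dpi and -4.65, -4.11 and -4.14 at 3 dpi. It fell by 0.92 (adjusted p = 0.0021) and by 1.18 (adjusted p = 9.9e-04), again with no overlap with Ctrl. With normexp background correction its 1 dpi value was -0.13, at an adjusted p of 0.14.

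The probes of Stat5a disagreed. The second one lies 1133 bases nearer the start of the transcript (mm9, chr11:100745240-100745299, against chr11:100746373-100746432, both plus strand). It read 0.44, 1.05 and 0.99 in Ctrl, 1.69, 1.20 and 1.54 at 1 dpi and -0.10, 0.76 and 0.84 at 3 dpi. At 1 dpi all 3 arrays were above Ctrl, where the brightest probe put them below, and replicate 1 of Ctrl and of 3 dpi stood under its group. This probe had log2 fold changes of 0.65 at 1 dpi (95% interval -0.01 to 1.30, adjusted p = 0.083) and -0.33 at 3 dpi (-0.98 to 0.33, adjusted p = 0.42), and it fell by 0.97 between the times (SE 0.28, adjusted p = 0.024). Without Ctrl replicate 1 and 3 dpi replicate 1, a choice made after seeing the data, the 1 dpi value was 0.46 at an adjusted p of 0.038. It also passed with normexp background correction, at 0.61 (adjusted p = 0.045), and without 3 dpi replicate 1 (adjusted p = 0.029). In 12 of 15 alternatives it did not pass, and with scaling to the median it was 0.33 (adjusted p = 0.28). With the mean of both probes Stat5a had a log2 fold change of 0.06 at 1 dpi (adjusted p = 0.7) and -0.45 at 3 dpi (adjusted p = 0.03). Between the times the mean of both probes had -0.51 (adjusted p = 0.015), and the deposited values had -0.99 (adjusted p = 0.023). The direction of Stat5a at 1 dpi therefore depended on the probe.

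**Figure D2:**
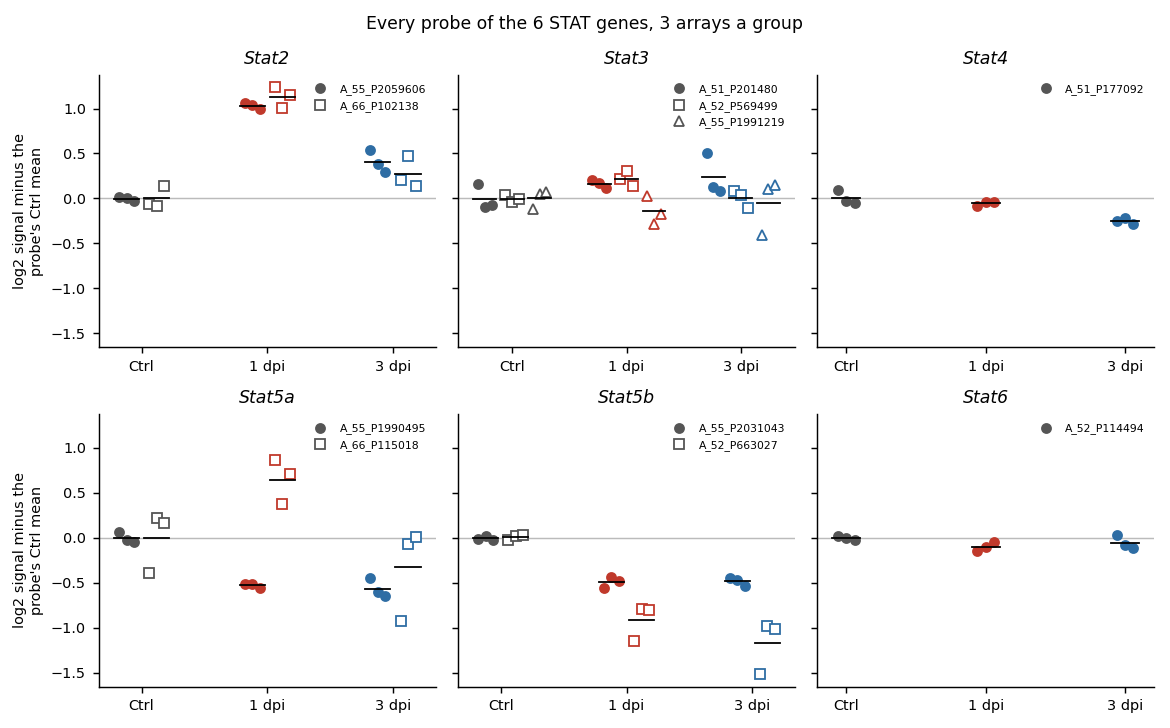
Log2 signal of each of the 11 probes of the 6 STAT genes on 9 arrays, minus the probe's Ctrl mean; filled points are the brightest probe, open points the others, and lines the means of 3 arrays. Both Stat2 probes sit near 1 at 1 dpi, with log2 fold changes of 1.04 and 1.13, whereas the Stat5a probes part, at -0.53 and 0.65.

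Signal at 1 dpi also differed along transcripts in general. Among 3676 transcripts with 2 probes at least 500 bases apart, the log2 signal of the upstream probe minus that of the 3′ probe had a median difference of 0.32 between 1 dpi and Ctrl (quartiles -0.05 and 0.77). The median was 0.01 between 3 dpi and Ctrl. Centred over the arrays, the medians were -0.16, -0.10 and -0.10 in Ctrl, 0.25, 0.19 and 0.19 at 1 dpi and -0.15, -0.08 and -0.04 at 3 dpi. For Stat5a the same difference was 1.18 at 1 dpi, above 91% of these transcripts, and 0.24 at 3 dpi. The second brightest and brightest Stat3 probes are annotated to different transcripts and so are not such a pair. Their difference went the other way at 1 dpi, with centred values of -0.09, 0.35 and 0.34 in Ctrl, 0.03, -0.26 and -0.10 at 1 dpi and -0.72, 0.18 and 0.27 at 3 dpi. These overlapped between Ctrl and 1 dpi. This shift along transcripts moved with the Stat5a disagreement, and its part in it was not tested.

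**Figure D3:**
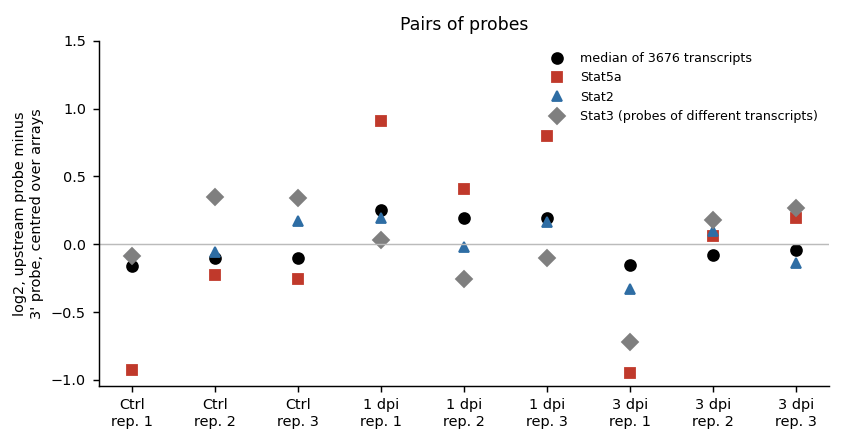
Log2 signal of an upstream probe minus that of a 3′ probe of the same transcript on each array, centred over 9 arrays, for Stat5a, Stat2 and the median of 3676 transcripts, and for 2 Stat3 probes annotated to different transcripts. At 1 dpi the median is 0.19 to 0.25, elsewhere -0.16 to -0.04, and Stat5a spans -0.95 to 0.91.

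Stat3, which mediates signals of the IL-6 family, had 3 probes. The brightest read 3.59, 3.33 and 3.36 in Ctrl, 3.63, 3.60 and 3.55 at 1 dpi and 3.94, 3.56 and 3.51 at 3 dpi. The groups overlapped, and replicate 1 was highest in Ctrl and 3 dpi. The log2 fold changes of 0.17 at 1 dpi (95% interval -0.12 to 0.46, adjusted p = 0.27) and 0.24 at 3 dpi (-0.05 to 0.54, adjusted p = 0.18) did not pass, and relative to all genes they were -0.08 and 0.13. Without Ctrl replicate 1 and 3 dpi replicate 1, chosen after seeing the data, Stat3 had 0.25 at 1 dpi (adjusted p = 0.0049) and 0.19 at 3 dpi (adjusted p = 0.029). With scaling to the array median the 1 dpi value turned to -0.15 (adjusted p = 0.52). The dimmest probe had a log2 fold change of 0.22 at 1 dpi (adjusted p = 0.038), which turned to -0.09 with scaling to the median and to -0.04 with quantile normalization but was 0.44 with normexp background correction (adjusted p = 4.3e-04).

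The values that the authors' gene matrix carries for Stat3 come from its second brightest probe. It read -1.48, -1.31 and -1.29 in Ctrl, -1.33, -1.65 and -1.53 at 1 dpi and -1.77, -1.25 and -1.21 at 3 dpi. These groups overlapped too, with log2 fold changes of -0.14 (adjusted p = 0.46) and -0.05 (adjusted p = 0.83). With scaling to the median the 1 dpi value was -0.46 (adjusted p = 0.041).

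Stat4, the mediator of IL-12 signals in T and NK cells, read 1.71, 1.59 and 1.57 in Ctrl, 1.54, 1.58 and 1.58 at 1 dpi and 1.37, 1.40 and 1.33 at 3 dpi. The 3 dpi arrays were below all others, while Ctrl and 1 dpi overlapped. Stat4 fell by 0.25 at 3 dpi against Ctrl (SE 0.06, adjusted p = 0.014) and by 0.20 against 1 dpi (SE 0.06, adjusted p = 0.028). Its 1 dpi value was -0.05 (95% interval -0.19 to 0.08, adjusted p = 0.45). Relative to all genes Stat4 stood at -0.30 at 1 dpi and -0.37 at 3 dpi, and no change reached 2-fold. At 3 dpi it did not pass the adjusted p with scaling to the median, at -0.38 (adjusted p = 0.081), with Ctrl and 3 dpi fitted alone (adjusted p = 0.054), or without 3 dpi replicate 3, at -0.24 (adjusted p = 0.055). Between the times it did not pass with scaling to the median, at -0.01 (adjusted p = 0.97). It also did not pass when any 1 dpi or 3 dpi array was left out, where the size stayed similar. Without Ctrl replicate 1 and 3 dpi replicate 1, chosen after seeing the data, it passed at -0.20 (adjusted p = 0.01).

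Stat6, which carries IL-4 and IL-13 signals, read 1.52, 1.50 and 1.48 in Ctrl, 1.35, 1.40 and 1.45 at 1 dpi and 1.53, 1.42 and 1.39 at 3 dpi. The 1 dpi arrays were all below Ctrl, and 3 dpi overlapped with both. No comparison passed, with log2 fold changes of -0.10 at 1 dpi (95% interval -0.24 to 0.04, adjusted p = 0.2), -0.05 at 3 dpi (-0.20 to 0.09, adjusted p = 0.53) and 0.04 between the times (-0.10 to 0.19, adjusted p = 0.59). Relative to all genes Stat6 stood at -0.35 at 1 dpi and -0.17 at 3 dpi. With scaling to the median it was -0.41 at 1 dpi, at an adjusted p of 0.025.

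At 1 dpi against Ctrl, 1 of 6 STAT genes was called higher (Stat2) and 0 lower, when 12.3% of all genes were called higher and 2.87% lower. On the adjusted p alone, 1 was higher and 2 lower, beside 34.8% and 21.1% of all genes. The median of the 6 was -0.08, against 0.25 for all genes. With a change this common across genes, the number of STAT genes that passed is no result about the family.

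At 3 dpi against Ctrl, limma called 0 of 6 higher and 0 lower at 2-fold, beside 6.98% and 1.82% of all genes, and 0 reached 2-fold at an unadjusted p under 0.05 either. On the adjusted p alone, and on the unadjusted p, 1 was higher and 3 lower, beside 16.9% and 15.1% for the adjusted p. The median was -0.15, against 0.11. At 3 dpi against 1 dpi, 0 of 6 were called higher and 0 lower, beside 3.97% and 4.82%, and 0 were higher and 2 lower on the adjusted p alone, beside 19.8% and 24.9%, and on the unadjusted p. A plain t-test with Benjamini-Hochberg adjustment also called 0 in these 2 comparisons. Both comparisons with Ctrl share the same 3 control samples. By scaling, the STAT gene directions against Ctrl were those given here under median scaling and quantile normalization, apart from Stat3 at 1 dpi under median scaling.

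**Figure D4:**
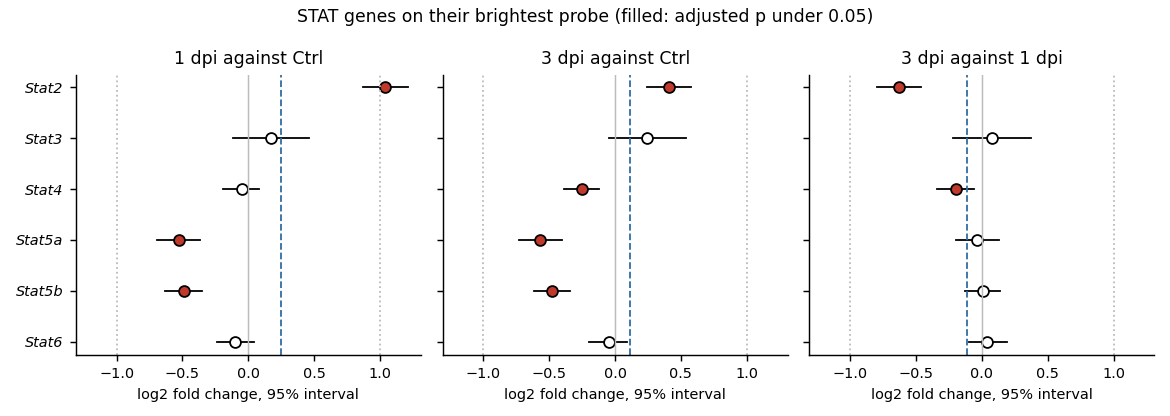
Log2 fold changes of the 6 STAT genes on their brightest probe with 95% intervals in the 3 comparisons; filled points passed an adjusted p of 0.05, dotted lines mark 2-fold and the dashed line the median of all genes. At 1 dpi Stat2 is at 1.04 and the STAT5 genes at -0.53 and -0.49, and under median scaling Stat3 turns from 0.17 to -0.15.

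The authors' matrix gives 1 log2 value per gene name, and its rows could be traced to probes. Of 27275 rows, 27050 matched a probe of that name within 0.1 after quantile normalization, with a median largest difference of 0.00155. Column medians were 5.79 to 5.87, so the values were on the log2 scale, not centred by gene. For Stat2, Stat4 and Stat6 the row held the brightest probe, and for Stat3, Stat5a and Stat5b a dimmer one. In these rows Stat5a read 10.51, 11.16 and 11.11 in Ctrl, 11.83, 11.32 and 11.67 at 1 dpi and 10.01, 10.87 and 10.96 at 3 dpi, highest at 1 dpi. Its log2 fold change at 1 dpi was 0.67 (adjusted p = 0.081) in place of -0.53. Stat5b had -1.24 at 1 dpi (adjusted p = 8.5e-04) and -1.28 at 3 dpi (adjusted p = 0.0011) there, past 2-fold, and Stat3 had -0.23 at 1 dpi (adjusted p = 0.24).

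The STAT genes also differ in where they lie. In the RefSeq annotation of GRCm38.p6, Stat5b, Stat5a and Stat3 are neighbours on chromosome 11, with 346 bases between Stat5b and Stat5a and 1636 between Stat5a and Stat3. Stat2 and Stat6 are both on chromosome 10, and Stat4 is on chromosome 1. The dimmest Stat3 probe (mm9, chr11:100746462-100746521, minus strand) sits next to the brightest Stat5a probe, on the other strand. It is annotated to an Ensembl transcript, not a RefSeq one. Whether it lies within the RefSeq Stat3 gene was not tested, so its values may not speak for that gene.

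Upstream of the STAT proteins, 3 of the 4 JAK kinases passed neither test against Ctrl in the reported fit. Jak1, shared by most cytokine receptors, read 3.78, 3.71 and 3.63 in Ctrl and 3.77, 3.76 and 3.71 at 1 dpi, and both times overlapped with Ctrl. Its log2 fold changes were 0.04 at 1 dpi (adjusted p = 0.61) and -0.02 at 3 dpi (adjusted p = 0.78). Jak2, a kinase of blood cell growth factor receptors, had -0.12 (adjusted p = 0.14) and 0.06 (adjusted p = 0.5). Its 1 dpi value was -0.43 with scaling to the median (adjusted p = 0.031) and 0.36 with the mean of its probes (adjusted p = 8.3e-04). Its second probe disagreed at 1 dpi, at 0.84, and the authors' matrix, at 0.78 with an adjusted p of 3.7e-05, did too. Tyk2, an interferon receptor kinase, had 0.02 (adjusted p = 0.91) and -0.03 (adjusted p = 0.9), while its second probe had 0.36 and 0.43. Jak3, the kinase of lymphocyte cytokine receptors, was the 1 called kinase: it rose by 0.86 at 1 dpi (adjusted p = 0.0038) and by 1.49 at 3 dpi (adjusted p = 3.9e-04), while its other 2 probes ranged from 0.19 to 0.38 at 3 dpi.

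Of 41 receptor genes tested, 8 were called at 1 dpi, 7 of them higher, and 8 at 3 dpi, all higher, with medians of 0.44 and 0.41. For all genes these shares were 12.3% higher with 2.87% lower at 1 dpi, and 6.98% with 1.82% at 3 dpi, the yardstick for the other lists too. The 4 named by size were Lifr, Ghr, Osmr and Il2rb. Lifr, the receptor for leukemia inhibitory factor, read -2.57, -2.64 and -2.68 in Ctrl, -1.53, -1.76 and -1.47 at 1 dpi and 0.27, 0.37 and 0.51 at 3 dpi. Its arrays were higher at 1 dpi than in Ctrl and highest at 3 dpi, with log2 fold changes of 1.04 (adjusted p = 1.1e-04) and 3.01 (adjusted p = 5.9e-07). Osmr, the oncostatin M receptor, rose by 1.60 and 2.56 (adjusted p = 3.1e-05 and 2.9e-06). Ghr, the growth hormone receptor, rose by 0.84 and 2.77 (adjusted p = 3.9e-04 and 1.1e-06), and Il2rb, a chain of the IL-2 and IL-15 receptors, by 1.37 and 2.46 (adjusted p = 1.4e-05 and 7.6e-07). The summed stromal and macrophage signals and the mean endothelial signal were higher at the same times, although on the adjusted p alone 1 stromal, 1 endothelial and 2 macrophage markers were lower at 1 dpi, and 1 stromal marker at 3 dpi. The summed T and NK cell signal was also higher at both times, with 2 of 10 markers called higher at 1 dpi and 4 at 3 dpi. The part of these cell types in the receptor values was not tested.

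Among 36 ligand genes tested, 11 were called at 1 dpi, all higher, and 7 were called higher at 3 dpi with 2 lower, with medians of 0.76 and 0.17. Lif, an IL-6 family cytokine, read -5.88, -4.68 and -4.84 in Ctrl, -0.58, -1.09 and -1.21 at 1 dpi and -3.55, -3.99 and -3.70 at 3 dpi. Every irradiated array was above Ctrl, and the 1 dpi arrays were the highest. Lif rose by 4.17 at 1 dpi (adjusted p = 4.6e-05), a fold of 18.0, and by 1.38 at 3 dpi (adjusted p = 0.014), and it fell by 2.79 between the times (adjusted p = 4.6e-04). Il23a, a subunit of IL-23, was not well above background on any Ctrl array. It entered the tests through irradiated arrays alone, so the filter favoured a rise and no p-value is given for it. The counts above include it. For a lower bound, the Ctrl signal was replaced by the lowest signal well above background on each array, or the probe's own where higher. Il23a was then at least 3.54-fold higher at 1 dpi and at least 1.77-fold higher at 3 dpi. Csf2, encoding GM-CSF, had log2 fold changes of 2.41 and 3.17, and Il7 of 1.84 and 3.11. Each of these last 2 was well above background on 2 of 3 Ctrl arrays. Both therefore entered the tests through irradiated arrays alone, so the filter favoured a rise here too. No p-value is given for them, the size of their rises is uncertain, and the counts above include both. The second Il7 probe had 0.95 and 0.14.

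Of 22 feedback inhibitors, 2 were called higher at 1 dpi with 1 lower, and 0 were called at 3 dpi, with medians of -0.17 and 0.11. On the adjusted p alone 7 were higher and 10 lower at 1 dpi, beside 34.8% and 21.1% of all genes. At 3 dpi 5 were higher and 1 lower, beside 16.9% and 15.1%. The unadjusted p gave 7 and 11 at 1 dpi, and 8 and 2 at 3 dpi. Usp18, which blocks the type I interferon receptor, read -0.29, -0.26 and -0.27 in Ctrl, 1.83, 1.82 and 1.79 at 1 dpi and 0.43, 0.28 and 0.26 at 3 dpi. Like Stat2 it was highest at 1 dpi and in between at 3 dpi, without overlap. It rose by 2.09 (adjusted p = 5.8e-07) and by 0.60 (adjusted p = 2.3e-04). Cish, a STAT5 target that inhibits STAT5 signals, read 0.71, 0.61 and 0.55 in Ctrl, 1.62, 1.62 and 1.63 at 1 dpi and 1.27, 1.20 and 1.21 at 3 dpi. Both times lay above Ctrl, although the Stat5a and Stat5b transcripts were lower on their brightest probes. Cish rose by 1.00 (adjusted p = 1.4e-05), just at 2-fold, and by 0.61 (adjusted p = 2.1e-04), and by 0.69 at 1 dpi with scaling to the median.

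Socs4 fell by 1.42 at 1 dpi (adjusted p = 1.5e-04) on its brightest probe, while its other 2 probes were between -0.43 and 0.12. Socs1, an inhibitor of interferon signals, rose by 0.77 at 1 dpi (adjusted p = 1.4e-04) and had 0.23 at 3 dpi (adjusted p = 0.057). Socs3, a STAT3 target that limits IL-6 signals, rose by 0.27 at 1 dpi (adjusted p = 0.012), which turned to -0.04 with scaling to the median, and by 0.88 at 3 dpi (adjusted p = 5.2e-05). Of 10 partners of STAT proteins, limma called 0 against Ctrl at either time, with 4 higher and 3 lower at 1 dpi on the unadjusted p. Crebbp, a histone acetyltransferase that binds STAT proteins, rose by 0.95 at 1 dpi (adjusted p = 1.2e-04) and had -0.10 at 3 dpi (adjusted p = 0.43). Its other probes had log2 fold changes between -0.32 and 0.36 at 1 dpi and between -0.95 and -0.31 at 3 dpi.

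Over the whole pathway without the STAT genes, 113 of 120 listed genes were tested. At 1 dpi 20 of them were called higher with 2 lower, at 3 dpi 16 with 2, and between the times 8 with 10. The shares of all genes called higher and lower were 12.3% and 2.87%, 6.98% and 1.82%, and 3.97% and 4.82%. The medians of 0.32, 0.17 and -0.04 stood beside 0.25, 0.11 and -0.11 for all genes.

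**Figure D5:**
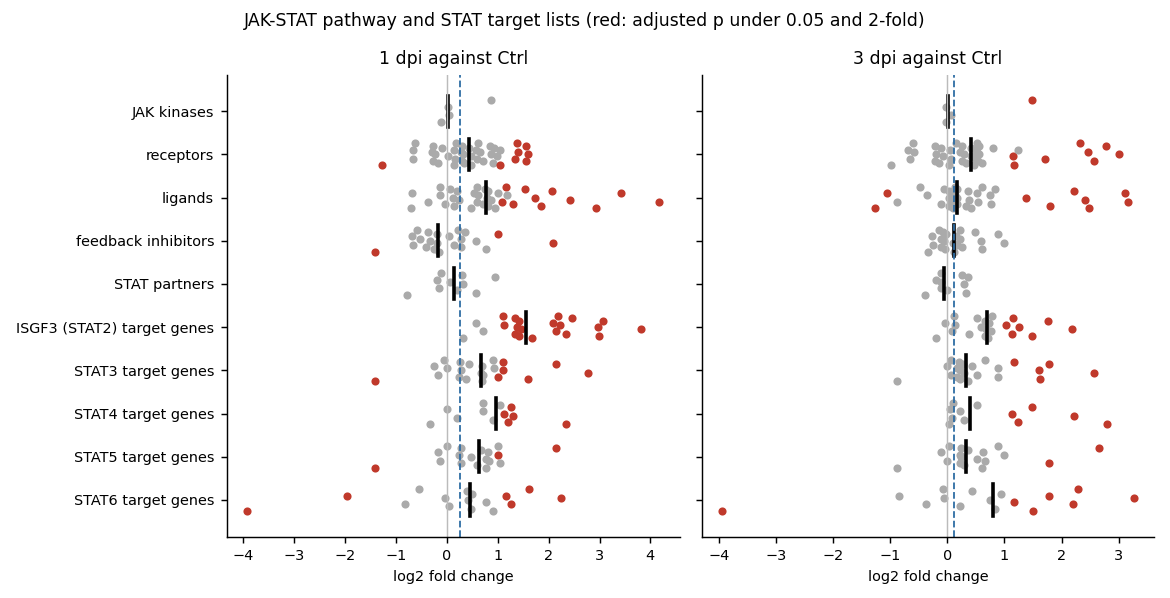
Log2 fold changes at 1 and 3 dpi against Ctrl for the genes of 5 JAK-STAT pathway lists and 5 lists of STAT target genes; each point is a gene, red ones were called, black bars are list medians and the dashed line is the median of all genes. The ISGF3 list has a median of 1.56 at 1 dpi and 0.69 at 3 dpi, and the 4 JAK kinases have medians of 0.03 and 0.02, with Jak3 apart at 0.86 and 1.49.

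Known target genes were then read list by list, each list holding textbook targets of the factor in its name. Of 22 targets of ISGF3, the complex of STAT2 with IRF9 and another STAT, 19 were called at 1 dpi and 7 at 3 dpi, all of them higher, beside 12.3% and 6.98% of all genes. Between the times 11 were called, all lower at 3 dpi, beside 4.82% of all genes. The medians were 1.56, 0.69 and -1.03, against 0.25, 0.11 and -0.11 for all genes. Ifit3, which encodes an RNA-binding antiviral protein, read 0.12, 0.26 and 0.16 in Ctrl, 4.01, 4.02 and 3.98 at 1 dpi and 2.49, 2.31 and 2.29 at 3 dpi. The order was that of Stat2, with 1 dpi highest and no overlap. Ifit3 rose by 3.82 (adjusted p = 1.1e-07) and by 2.18 (adjusted p = 6.9e-07), its relative Ifit1 by 3.06 and 1.49 (adjusted p = 3.9e-07 and 8.3e-06), the antiviral enzyme Rsad2 by 2.98 and 0.68 (adjusted p = 2.5e-07 and 2.7e-04), and the GTPase Mx1 by 2.96 and 1.77 (adjusted p = 9.9e-07 and 9.2e-06). Irf9 itself is on this list and was named here after its values were seen. It rose by 0.32 at 1 dpi (adjusted p = 0.0018), little more than the median of 0.25 for all genes. At 3 dpi it fell by 0.20 (adjusted p = 0.026), where that median was 0.11. Both changes were under 2-fold, and at 3 dpi Irf9 did not share the direction of Stat2.

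Of 22 STAT3 targets, 6 were called higher at 1 dpi with 1 lower, and 5 at 3 dpi, all higher, with medians of 0.67 and 0.33. Timp1, a metalloproteinase inhibitor, rose by 2.77 at 1 dpi and 1.61 at 3 dpi (adjusted p = 1.4e-05 and 2.5e-04). Bcl3, an NF-κB cofactor, rose by 0.71 and 1.61 (adjusted p = 3.0e-04 and 5.4e-06). Of 18 STAT5 targets, 2 were called higher at 1 dpi with 1 lower, and 2 at 3 dpi, both higher, with medians of 0.63 and 0.33. With 12.3% of all genes called higher at 1 dpi and 6.98% at 3 dpi, these few calls are no result about the list. Ccnd1, the cyclin D1 gene and on both lists, rose by 2.15 and 1.79 (adjusted p = 9.5e-07 and 1.6e-06). Igf1 rose by 0.81 and 2.65 (adjusted p = 9.8e-05 and 3.7e-07), with its other probes between -0.05 and 1.65 at 1 dpi and between 0.24 and 2.01 at 3 dpi. Myc, also on both lists, read 3.09, 2.96 and 2.86 in Ctrl, 1.41, 1.61 and 1.62 at 1 dpi and 2.09, 2.14 and 2.06 at 3 dpi. It fell without overlap, by 1.42 (adjusted p = 1.2e-05) and by 0.87 (adjusted p = 1.7e-04), while its second probe had -0.26 and -0.60, lower at 3 dpi than at 1 dpi.

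Of 12 STAT4 targets, 5 were called at each time, all higher, with medians of 0.97 and 0.40. With scaling to the median 1 was called at 1 dpi. Ifng, the interferon-γ gene, rose by 1.30 and 2.21 (adjusted p = 2.5e-05 and 1.7e-06). Tbx21 rose by 1.12 and 1.48 (adjusted p = 1.9e-04 and 5.9e-05) and Prf1, the perforin gene, by 1.26 and 1.13 (adjusted p = 0.011 and 0.028). The Ctrl arrays of Prf1 were spread widely, at -3.64, -2.69 and -4.07. At 1 dpi 4 STAT4 targets were called without Ctrl replicate 3, and 6 without Ctrl replicate 2. Ifng, Tbx21 and Prf1 are genes of T and NK cells, whose marker sums were also higher at both times than in Ctrl. The part of such cells was not tested.

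Of 16 STAT6 targets tested, 6 were called at 1 dpi, 4 of them higher, and 7 at 3 dpi, 6 of them higher, with medians of 0.45 and 0.79. Fcer2a, the IgE receptor of B cells, read -1.51, -1.72 and -1.54 in Ctrl, -5.81, -5.11 and -5.63 at 1 dpi and -5.18, -5.98 and -5.44 at 3 dpi. It was well above background on 2 of 3 arrays at 1 dpi, so the size of its fall there is uncertain. It fell without overlap, by 3.92 and 3.94 (adjusted p = 1.4e-05 and 1.4e-05), beside the fall of 7 of 8 B cell markers, and its dimmer second probe had 0.99 at 1 dpi and -0.13 at 3 dpi. Mrc1, the mannose receptor of macrophages, read 0.76, 0.66 and 0.61 in Ctrl, 0.17, 0.08 and 0.15 at 1 dpi and 2.79, 2.90 and 2.92 at 3 dpi. It was lowest at 1 dpi and highest at 3 dpi: it fell by 0.54 (adjusted p = 4.1e-04) and then stood 2.19 above Ctrl (adjusted p = 4.9e-07). The chemokine gene Ccl24 rose by 2.24 and 3.26 (adjusted p = 4.4e-06 and 6.6e-07). Mrc1 is itself on the macrophage list, whose sum was higher at both times, and the part of macrophages and B cells in these targets was not tested.

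The genes most like each STAT gene were taken from 24006 candidates well above background on all 9 arrays, by Pearson r over the 9 arrays. They describe these arrays only, since 3 groups of 3 set much of any such r. For Stat2 they were Eif1ad (r = 0.997) and Ttc7 (r = 0.997), for Stat3 Snx13 (r = 0.989) and Ctu2 (r = 0.982), and for Stat4 2410006H16Rik (r = 0.992) and Pola2 (r = 0.990). For Stat5a they were Rsph1 (r = 0.997) and Toporsos (r = 0.995), for Stat5b D19Bwg1357e (r = 0.994) and Dtd1 (r = 0.994), and for Stat6 Gfi1 (r = 0.964) and Cks1b (r = 0.964). Eif1ad had log2 fold changes of 0.59 at 1 dpi and 0.26 at 3 dpi, and Rsph1 had -0.83 and -0.87.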

How the data were processed

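Per the file headers, the authors' intensity values came from Agilent Feature Extraction 10.7.1.1, with spatial and multiplicative detrending. The deposited log2 matrix was used as an alternative, and flags of other kinds (well above background, outlier) were deposited with the intensity values. The log2 intensity values of a probe's spots were averaged after leaving out spots with outlier flags, 3671 control spots of 62976 and 20 probes with no spot left on an array. By accession 32994 probes were named through RefSeq, and 23611 kept the file's name. Log2 intensity minus the array's 75th percentile was tested with limma 3.58.1 in R 4.3.3 (lmFit, eBayes, all 9 arrays in 1 fit, Benjamini-Hochberg over 29410 genes). A probe entered the test if each array of 1 group or more read it well above background. Named genes were the members, 7 fixed genes, and up to 4 called genes per list with the largest change. Of these, 3 are not reported. Members and lists were chosen with earlier results of these data known. An exact permutation test of 3 against 3 cannot go below 0.10, so none is given.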

Additional observations from a re-analysis of the deposited data

Results flagged for a closer look

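On the brightest probes, the irradiation effect on 2 STAT genes differed between the time points by limma's test of 3 dpi against 1 dpi. Stat5a passed this test on its second probe, at -0.97 (adjusted p = 0.024), but not on its brightest. With the mean of both probes it had -0.51 (adjusted p = 0.015). For Stat2 the log2 difference was -0.63 (SE 0.07, adjusted p = 4.7e-04), lower on 3 of 3 arrays, and the second probe gave -0.86 (adjusted p = 7.0e-04). For Stat4 it was -0.20 (SE 0.06, adjusted p = 0.028), lower on 3 of 3 arrays and -0.09 relative to all genes, but with scaling to the array median it was -0.01 (adjusted p = 0.97). It did not pass when any 1 dpi or 3 dpi array was left out, where the size stayed similar, so the Stat4 difference depends on these choices.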

How the results depend on the processing

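Beside the reported fit, 22 alternatives were run for each STAT gene and its reported change: other scaling, background correction, the deposited values, filters, probe averaging, samples, blocks, tests, and each array left out in turn. Of 621 values for the STAT genes and their probes, 549 kept direction and side of the threshold, 31 no longer passed, 11 newly passed and 30 changed direction. Of 2169 for other named genes these were 2056, 63, 10 and 40. No array left out moved a reported count of called STAT, pathway or target genes by more than 1.5 times, but without Ctrl replicate 1 the median change of all genes against Ctrl was 0.15 at 1 dpi and 0.00 at 3 dpi, in place of 0.25 and 0.11. The share of spots well above background, 69.1% to 81.8%, limits what dim probes can show. Unless stated, the cause of a change below was not tested.

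STAT genes called (reported 1, 0 and 0 at 1 dpi, at 3 dpi and between the times): without a minimum fold, which by construction calls more, 3, 4 and 2. At 1 dpi 0 were called with scaling to the median, 0 with normexp and 2 with the deposited values, which gave 1 at 3 dpi. Pathway genes (reported 22, 18 and 18): without a minimum fold 74, 48 and 66, and 11 between the times with normexp. Targets without a minimum fold at 1 dpi: STAT3 19 (reported 7), STAT4 9 (5), STAT5 14 (3), STAT6 14 (6). At 3 dpi: ISGF3 18 (7), STAT3 16 (5), STAT5 10 (2), STAT6 12 (7). Between the times: ISGF3 21 (11), STAT3 15 (1), STAT4 6 (0), STAT5 10 (1), STAT6 12 (4). With scaling to the median STAT3 targets gave 4 and STAT4 targets 1 at 1 dpi, and 2 and 1 between the times. With quantile normalization STAT3 targets gave 2 between the times, and with the deposited values STAT3 gave 2, STAT4 1 and STAT5 3. With the mean of all probes STAT5 targets gave 0 between the times, and with the filter on all 9 arrays STAT6 targets gave 3 at 1 dpi.

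The direction changed at 1 dpi against Ctrl, as log2 fold changes, for Stat3 (-0.15 median, -0.23 deposited), Stat5a (0.67 deposited, 0.060 mean of probes), Fcer2a (0.99 filter on all 9 arrays), Jak1 (-0.28 median, -0.088 quantile, -0.010 normexp, -0.090 deposited, -0.001 to 0.074 leave-one-out), Jak2 (0.78 deposited, 0.36 mean of probes), Tyk2 (-0.29 median, -0.12 deposited, -0.012 to 0.086 leave-one-out), Socs3 (-0.042 median) and Stat3's dimmest probe (-0.093 median, -0.045 quantile). Median and quantile stand for other scaling. The deposited values of Stat3 and Stat5a come from another probe, and under the filter a dimmer probe stands in for Fcer2a.

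At 3 dpi against Ctrl it changed for Stat3 (-0.052 deposited), Jak1 (0.001 normexp, 0.013 slide block, 0.000 both left out, -0.062 to 0.013 leave-one-out), Jak2 (-0.064 median), Tyk2 (0.19 deposited, 0.20 mean of probes, 0.17 both left out, -0.14 to 0.15 leave-one-out), Stat3's dimmest probe (-0.12 median, -0.067 quantile, -0.006 normexp, -0.011 both left out, -0.033 to 0.066 leave-one-out) and Stat3's second probe (0.068 both left out, -0.15 to 0.13 leave-one-out). Both left out means Ctrl replicate 1 and 3 dpi replicate 1, chosen after seeing the data.

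Between the times it changed for Stat3 (-0.015 mean of probes, -0.059 both left out, -0.059 to 0.15 leave-one-out), Stat5a (0.15 median, -0.096 to 0.004 leave-one-out), Stat5b (-0.038 quantile, -0.041 deposited, -0.13 mean of probes, -0.014 both left out, -0.029 to 0.034 leave-one-out), Prf1 (0.062 median, 0.018 quantile, 0.019 deposited), Fcer2a (0.17 median, 0.24 quantile, 0.25 deposited, -0.19 to 0.21 leave-one-out), Jak1 (0.13 median, 0.010 normexp), Jak2 (-0.76 deposited, -0.32 mean of probes), Tyk2 (0.14 median, 0.31 deposited, 0.008 mean of probes, 0.13 both left out, -0.16 to 0.13 leave-one-out) and Stat3's second probe (-0.013 normexp, -0.005 to 0.27 leave-one-out).

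Replicate numbers did not pair the samples: deviations of same-numbered arrays from their group means correlated at -0.11 to 0.13, and 4 of 9 arrays correlated best with their own number. With the replicate number as a block, 1, 0 and 0 STAT genes and 22, 18 and 17 pathway genes were called. Stat4 between the times had an adjusted p of 0.053 with the block.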
